A study of Tupaia belangeri chinensis with 36 samples.

Results

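The caput-restricted genes of the tree shrew were the genes whose transcripts were abundant in the head of the epididymis, the caput, and scarce in its tail, the cauda, and in the testis. Members were chosen by these measured levels: a gene belonged to the set when its mean over the 6 caput libraries was at least 10 CPM (counts per 1000000 counts of the library) and at least 10 times both the mean of the 6 cauda libraries and the mean of the 6 testis libraries. This rule was met by 155 of the 27777 genes, out of 10603 genes with a caput mean of at least 10 CPM. The same rule turned to the other tissues gave 29 cauda-restricted and 1467 testis-restricted genes.

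The 18 poly(A) RNA-seq libraries came from mature male Tupaia belangeri chinensis aged 1.5 to 2 years, with no treatment named in the labels. There were 6 groups of 3 biological replicates: CAPUT-R, CAPUT-NR, CAUDA-R, CAUDA-NR, TESTIS-R and TESTIS-NR. R stands for the reproductive season, sampled in the middle of April 2024, and NR for the non-reproductive season, sampled in the middle of December 2023. Each season was sampled at 1 time, so season and sampling date cannot be told apart.

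The epididymis is the duct in which sperm leaving the testis mature and are stored. Its epithelium is divided into segments, and principal cells of the caput secrete proteins into the lumen that bind to or act on passing sperm. In mouse and rat, expression of many caput genes is known to depend on androgen and on factors that arrive in the fluid from the testis. None of the identifiers in the gene table could be joined to a symbol, since 0 of 27777 were found in the RefSeq list used here. Members are therefore described by their rank in caput mean, the most abundant being rank 1, with 4 identifiers given, and no role is attached to any of them. For the same reason the tissue labels were not checked against marker genes.

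Libraries held 26703225 to 37174187 counts, and the 6 caput libraries 26703225 to 32494750. TESTIS-NR 3 stood apart from the other NR libraries of its tissue, and the NR libraries numbered 3 of the epididymis did so less. Over the 10696 genes of at least 10 CPM there, the log2(CPM + 1) values of TESTIS-NR 3 had a Pearson correlation of 0.952 to 0.963 with the TESTIS-R libraries, against 0.607 and 0.355 with TESTIS-NR 1 and 2. CAUDA-NR 3 had 0.894 to 0.928 with the CAUDA-R libraries, against 0.905 and 0.879 with CAUDA-NR 1 and 2. Over all genes of at least 10 CPM in the caput, CAPUT-NR 3 was as close to CAPUT-NR 1 as to CAPUT-R 1, at 0.881 with each. It had 0.858 and 0.880 with CAPUT-R 2 and 3, and 0.845 with CAPUT-NR 2. In the members it was nearer to CAPUT-R 1 and 3. Across the 155 members, the log2(CPM + 1) values of CAPUT-NR 3 had a Pearson correlation of 0.920, 0.796 and 0.946 with CAPUT-R 1, 2 and 3, against 0.837 and 0.701 with CAPUT-NR 1 and 2. CAPUT-R 2 stood apart from its own group, at 0.768 and 0.823 with CAPUT-R 1 and 3, which had 0.959 with each other. These are correlations across genes, which are not independent replicates. The season labels were used as given. Whether they hold for the NR libraries numbered 3 was not tested, which bears on every difference between R and NR. Season calls by edgeR are therefore counted with and without these libraries, and those by DESeq2 in the caput only. DESeq2 calls in the cauda, the testis and the comparison of caput with cauda were not repeated without them.

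The levels that chose the members spanned 3 orders of magnitude in the caput. Caput means ran from 10.1 to 9778 CPM with a median of 55.7 CPM, and 66 members reached 100 CPM and 15 reached 1000 CPM. In the other tissues the median member had 0.992 CPM in the cauda and 0.741 CPM in the testis. The caput mean was a median 56.3 times the cauda mean and 104 times the testis mean, where a mean of 0 was set to a floor of 3 counts over the 6 libraries. These ratios were used by the rule and are given without a test.

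The distance from the other 2 tissues varied as widely as the level. For 44 members the caput mean was at least 100 times that of either other tissue. Transcripts of 11 members had 0 counts in all 6 cauda libraries, which puts their caput level at least 602-fold to at least 10572-fold higher. The 9 members with 0 counts in all testis libraries were at least 679-fold to at least 11381-fold higher in the caput, and 2 members had 0 counts in both tissues. The nearer tissue was the cauda for 95 members and the testis for 60.

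The member of rank 7 had the highest mean over the 6 libraries of another tissue, in the testis, while the highest mean of a single group outside the caput was that of rank 6, at 334 CPM in TESTIS-NR. Rank 7 had 4271, 5969 and 2628 CPM in CAPUT-R and 520, 206 and 2457 CPM in CAPUT-NR, with cauda and testis means of 156 and 260 CPM. Its caput mean was thus only just over 10 times its testis mean, and members close to the limit are not rare. The smallest ratio to the nearer tissue inside the set was 10.1 and the largest outside it was 9.88, with 18 members between 10 and 12 times and 23 genes between 8 and 10 times. The lowest caput mean inside was 10.1 CPM, and the highest among genes that met both ratios but not the level was 9.98 CPM.

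**Figure D1:**
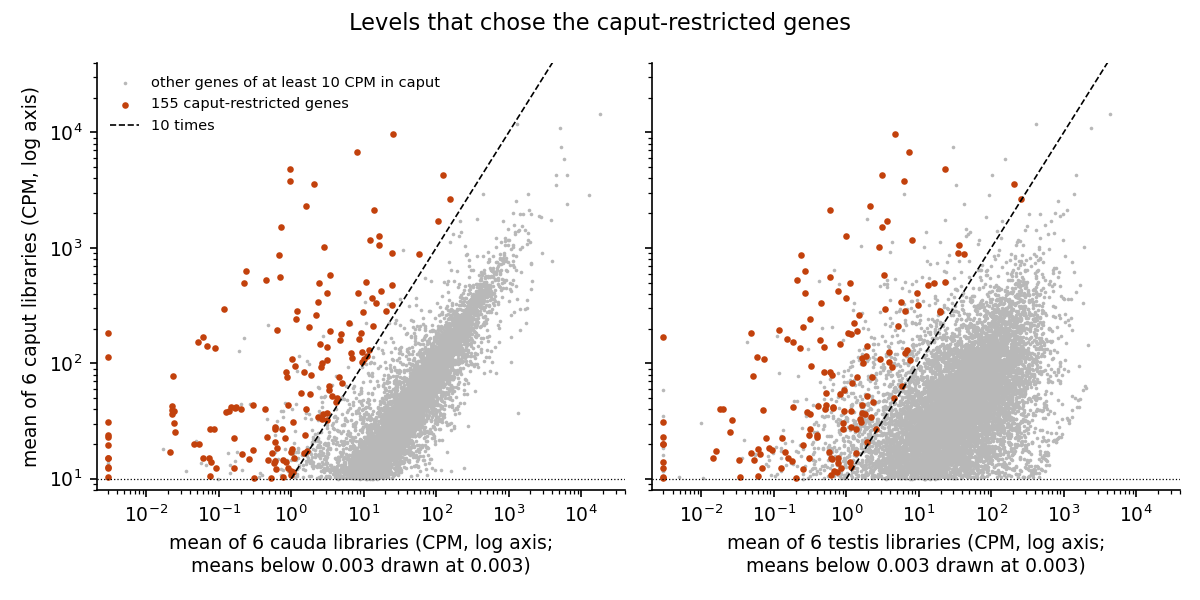
Caput mean (CPM, log axis) against the cauda mean (left) and the testis mean (right) of each gene with a caput mean of at least 10 CPM, with means below 0.003 drawn at 0.003. Red points are the 155 members and the dashed line marks 10 times. Members lie left of both lines by construction, with caput means from 10.1 to 9778 CPM.

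With each season taken alone, the rule was met by more genes in the reproductive season. Members were chosen by means over both seasons, so a member high in 1 season tends to keep the rule there. These counts are given without a test. Applied to the R libraries alone, the rule held for 142 of the 155 members and for 212 genes in all. Applied to the NR libraries alone, it held for 108 members and for 121 genes in all. With NR 1 and 2 alone it held for 97 members and 123 genes. Both seasons alone kept 95 members, R only 47 and NR only 13. Of the 47 that missed the rule in NR, 21 were below 10 CPM in CAPUT-NR, 26 were under 10 times CAUDA-NR and 21 were under 10 times TESTIS-NR, and a gene could miss in more than 1 way.

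Together the 155 members took a larger mean share of the library in CAPUT-R than in CAPUT-NR. As a share of library totals, their sum was 8.98%, 10.5% and 6.86% of counts in CAPUT-R 1, 2 and 3, against 3.35%, 3.20% and 6.65% in CAPUT-NR 1, 2 and 3. By library totals the groups did not overlap, but CAPUT-R 3 and CAPUT-NR 3 lay close together. Scaled by TMM, the trimmed mean of M-values that edgeR uses, the shares were 9.09%, 10.7% and 6.57% in CAPUT-R and 3.03%, 2.94% and 6.58% in CAPUT-NR, so that CAPUT-NR 3 was level with CAPUT-R 3 and the groups overlapped. The mean share was 8.77% ± 1.80 in CAPUT-R and 4.40% ± 1.95 in CAPUT-NR (SD, n = 3 each), a ratio of 1.99 that ran from 1.75 to 2.68 when each library in turn was left out. No p is given for a sum over genes chosen with results known. In these bulk samples, fewer cells of a type and less RNA per cell cannot be told apart.

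A few members carried much of this share. The 5 most abundant took 45.8%, 51.1% and 44.9% of the member counts in CAPUT-R and 31.6%, 32.8% and 44.8% in CAPUT-NR, where CAPUT-NR 3 again had the value of the R libraries. Without these 5, the share was 4.59% ± 0.711 in CAPUT-R and 2.70% ± 0.840 in CAPUT-NR. The median member had 74.6, 53.5 and 57.3 CPM in CAPUT-R and 44.3, 27.6 and 43.9 CPM in CAPUT-NR, so a higher level in R was not limited to the most abundant genes.

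Transcripts of the other tissues' restricted genes also differed among the caput libraries. The 1467 testis-restricted genes took 0.625%, 0.392% and 2.43% of counts in CAPUT-R and 0.467%, 0.381% and 0.899% in CAPUT-NR, the libraries numbered 3 being highest in each season. The 29 cauda-restricted genes took 0.0134%, 0.0241% and 0.0149% in CAPUT-R and 0.0431%, 0.0288% and 0.0262% in CAPUT-NR, where the groups did not overlap. The part of either in the members' season difference was not tested.

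Outside the caput the members' share was small. It was 0.0957% ± 0.0110 in CAUDA-R and 0.0934% ± 0.00458 in CAUDA-NR, and 0.0729% ± 0.00574 in TESTIS-R and 0.107% ± 0.0322 in TESTIS-NR (SD, n = 3 each). TESTIS-NR 1 and 2 had 0.116% and 0.134%, above the 0.0686% to 0.0794% of the TESTIS-R libraries, while TESTIS-NR 3 had 0.0715%, within that range. Scaled by TMM, the testis values drew together, at 0.0847% to 0.0959% in TESTIS-R and 0.0874% to 0.110% in TESTIS-NR.

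**Figure D2:**
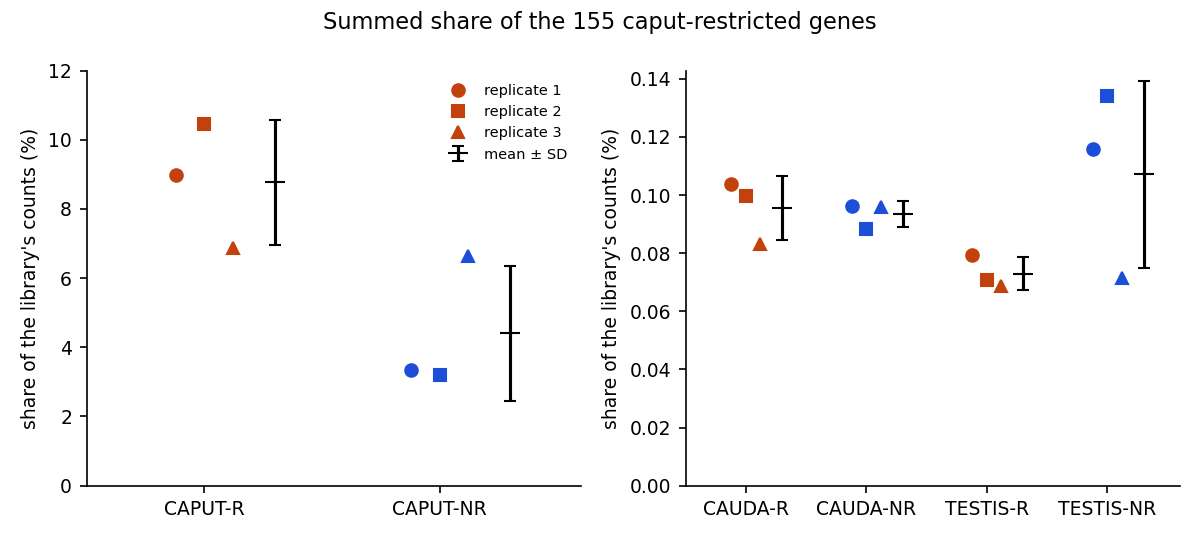
Share of each library's counts (%) held by the 155 members, in the caput (left) and in the cauda and testis (right, smaller axis). Points are libraries by replicate number and bars are mean ± SD of 3. By library totals, as drawn, the CAPUT-R libraries lie at 6.86% to 10.5% and the CAPUT-NR libraries at 3.20% to 6.65%, and under TMM CAPUT-NR 3 (6.58%) and CAPUT-R 3 (6.57%) overlap.

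The season comparison asked which members differed between R and NR within the caput. With edgeR's quasi-likelihood test and Benjamini-Hochberg adjustment over all genes, 0 of 17059 genes (0%) and so 0 of the 155 members passed an adjusted p of 0.05, and the lowest adjusted p of a member was 0.206. At an unadjusted p under 0.05, 49 members (31.6%, beside 15.7% of all genes) were counted, 39 higher and 10 lower in R, which is 25.2% and 6.45% of the members beside 6.91% and 8.79% of all genes tested. DESeq2, the tool that the study's design text names, called 31 of the 149 members with an adjusted p, 20.8% beside 5.54% of all genes. Of these 26 were higher and 5 lower in R, 17.4% and 3.36% beside 3.1% and 2.45% of the 16025 genes.

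Most members leaned towards R. The fitted change was positive for 117 members, 75.5% beside 50.1% of all genes, and its median was 0.71 (log2, R minus NR) beside 0.00 over all genes tested and -0.01 over genes of at least 10 CPM. A change of at least 1 was fitted for 63 members, 40.6% beside 10.1%, and of at most -1 for 11 members, 7.1% beside 5.94%. Without CAPUT-NR 3 the change was positive for 122 members, with a median of 0.88. The lean held for abundant and less abundant members: of the 20 most abundant, 17 had a positive change (median 0.89), and of the other 135, 100 had one (median 0.68).

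The replicates were less clear-cut than these counts. All CAPUT-R values lay above all CAPUT-NR values in 39 members, 25.2% beside 8.21% of all genes, and below them in 15, 9.68% beside 15.1%. The seasons overlapped in the other 101. Set against CAPUT-NR 1 and 2 alone, all CAPUT-R values were higher in 68 members, 43.9% beside 15.3%, and lower in 19, 12.3% beside 27.6%. Without CAPUT-NR 3, DESeq2 called 62 members (54 higher and 8 lower in R), 40.3% beside 13.8% of all genes. Without both caput libraries numbered 3 it called 55 (49 higher and 6 lower), 35.5% beside 6.79%. Without CAPUT-R 2 it called 46, 30.5% beside 17.6%, and without CAPUT-R 3 it called 28, 18.5% beside 3.97%. The counts were lower without CAPUT-R 1 (15, 9.93% beside 3.23%), CAPUT-NR 1 (13, 8.44% beside 2.31%) or CAPUT-NR 2 (15, 9.74% beside 2.49%). edgeR called 0 members in each of these fits, and 0 of all genes except for 1 gene without CAPUT-NR 1.

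**Figure D3:**
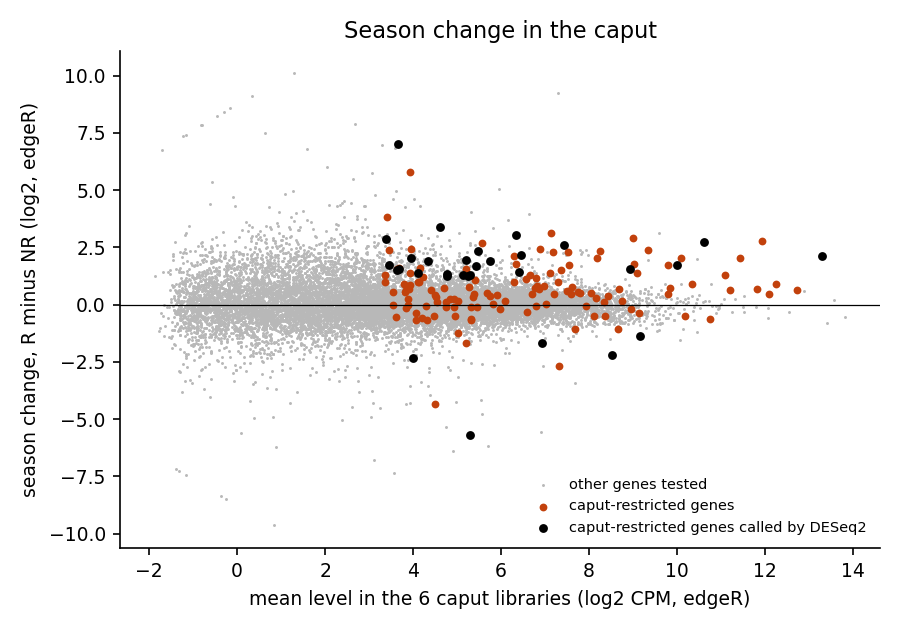
Fitted season change in the caput (log2, R minus NR, edgeR) against the mean level (log2 CPM, edgeR) of each gene tested. Red points are members, black points the 31 members called by DESeq2, 26 above and 5 below the line at 0, and 0 genes passed edgeR's adjusted p of 0.05.

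The 31 members called by DESeq2 were all at an unadjusted p under 0.05 in edgeR, and in 28 of them the seasons did not overlap. Their DESeq2 changes ran from 1.28 to 7.09 (log2, median 1.87) for the 26 higher in R, and from -1.30 to -5.66 for the 5 lower in R. They included 4 of the 20 most abundant members.

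The most abundant member of the set had 13098, 26013 and 8660 CPM in CAPUT-R, against 1927, 1353 and 7614 CPM in CAPUT-NR. All 3 R libraries were above all NR libraries, CAPUT-R 2 was the highest, and CAPUT-NR 3 was just below CAPUT-R 3. Its change was 2.14 (log2, SE 0.84, adjusted p 0.302 by edgeR) and DESeq2 gave an adjusted p of 0.0289. Without CAPUT-R 2 the DESeq2 call was lost (adjusted p 0.283), and without CAPUT-NR 3 its adjusted p was 1.16e-08. This transcript alone made up 2.60% of the counts of CAPUT-R 2 and 0.135% of those of CAPUT-NR 2.

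The members of ranks 2 and 3 differed less between seasons. Rank 2 had 9507, 5480 and 9400 CPM in CAPUT-R and 3400, 4295 and 8272 CPM in CAPUT-NR, so that CAPUT-NR 3 lay inside the R range (log2 0.63, SE 0.46, edgeR adjusted p 0.529). Rank 3 had 6491, 7084 and 5086 CPM in CAPUT-R and 2879, 2649 and 4735 CPM in CAPUT-NR. These groups did not overlap, but the difference did not pass (log2 0.90, SE 0.35, edgeR adjusted p 0.298, DESeq2 adjusted p 0.0533).

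Rank 5 had the widest range of the 5 most abundant members. It had 6346, 10031 and 3399 CPM in CAPUT-R, against 242, 5.55 and 2608 CPM in CAPUT-NR. All R values were above all NR values, yet the NR values themselves spanned a range larger than the gap between the seasons. The change was 2.78 (log2, SE 1.75, edgeR adjusted p 0.472), and DESeq2 did not call it either (adjusted p 0.355). Without CAPUT-NR 3 DESeq2 called it (adjusted p 2.41e-05) and edgeR did not (log2 5.85, adjusted p 0.205).

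Rank 11 separated the seasons more cleanly, with 3120, 2864 and 1977 CPM in CAPUT-R, against 234, 152 and 827 CPM in CAPUT-NR. The lowest R library was above the highest NR library, CAPUT-NR 3. Its change was 2.72 (log2, SE 0.72, edgeR adjusted p 0.251), and DESeq2 called it (adjusted p 0.000483), but not without CAPUT-R 2 (adjusted p 0.0576).

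No member passed edgeR's test, so the 4 identifiers are those with the smallest p in each direction among members whose seasons did not overlap. TSDBGID.22292, of rank 70, had 143, 104 and 114 CPM in CAPUT-R, against 50.4, 37.6 and 52.5 CPM in CAPUT-NR. Every R library was about 2 times the NR libraries or more, and CAPUT-NR 3 was with CAPUT-NR 1 and 2. Its mean was 120.2 ± 20.5 CPM in CAPUT-R and 46.8 ± 8.08 CPM in CAPUT-NR (SD, n = 3 each), a change of 1.41 (log2, SE 0.21, edgeR adjusted p 0.206). Its edgeR adjusted p was 0.120 to 0.616 over 12 other settings and its DESeq2 adjusted p 2.90e-07 to 0.000330 over 8.

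TSDBGID.9446, of rank 125, had 23.9, 27.7 and 21.6 CPM in CAPUT-R, against 11.8, 8.46 and 8.99 CPM in CAPUT-NR. Here too CAPUT-NR 3 was with the other NR libraries, and CAPUT-R 2 with the other R libraries. The mean was 24.4 ± 3.08 CPM in CAPUT-R and 9.75 ± 1.80 CPM in CAPUT-NR (SD, n = 3 each), a change of 1.38 (log2, SE 0.21, edgeR adjusted p 0.206, and 0.120 to 0.604 over 12 other settings). DESeq2 gave adjusted p of 5.65e-07 to 0.000880 over 8 settings.

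Lower in R were TSDBGID.23350 and TSDBGID.26194, of ranks 58 and 129. TSDBGID.23350 had 65.4, 36.3 and 67.8 CPM in CAPUT-R, against 223, 230.5 and 116 CPM in CAPUT-NR. CAPUT-NR 3 was the NR library nearest to R, but still above all R libraries. Its change was -1.68 (log2, SE 0.33, edgeR adjusted p 0.216, and 0.121 to 0.616 over 12 other settings), with DESeq2 adjusted p of 2.83e-06 to 0.0316 over 8 settings. TSDBGID.26194 had 6.22, 1.94 and 7.38 CPM in CAPUT-R, against 36.2, 27.6 and 18.6 CPM in CAPUT-NR, again with CAPUT-NR 3 nearest to R. Its change was -2.35 (log2, SE 0.52, edgeR adjusted p 0.223, and 0.120 to 0.616 over 12 other settings). DESeq2 gave adjusted p of 8.04e-07 to 0.0524 over 8 settings, the highest being without CAPUT-NR 1.

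The largest fitted changes belonged to members that were close to absent in several libraries. Rank 144 had 43.2, 0.934 and 29.8 CPM in CAPUT-R, against 0.334, 0.261 and 0 CPM in CAPUT-NR. CAPUT-R 2 was thus nearer to the NR libraries than to the other R libraries. Its fitted change was 7.00 (log2, SE 1.69, edgeR adjusted p 0.234), and DESeq2 called it (adjusted p 0.00192, and 2.60e-22 without CAPUT-R 2).

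In the opposite direction, rank 88 had 2.28, 0.374 and 1.71 CPM in CAPUT-R, against 146, 92.5 and 3.26 CPM in CAPUT-NR. Its level in CAPUT-NR 3 was close to that of the R libraries and far from CAPUT-NR 1 and 2. The fitted change was -5.69 (log2, SE 1.43, edgeR adjusted p 0.245), and DESeq2 called it (adjusted p 0.00151). Without CAPUT-NR 3 the change was -6.25 (edgeR adjusted p 0.129, DESeq2 adjusted p 6.26e-16).

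**Figure D4:**
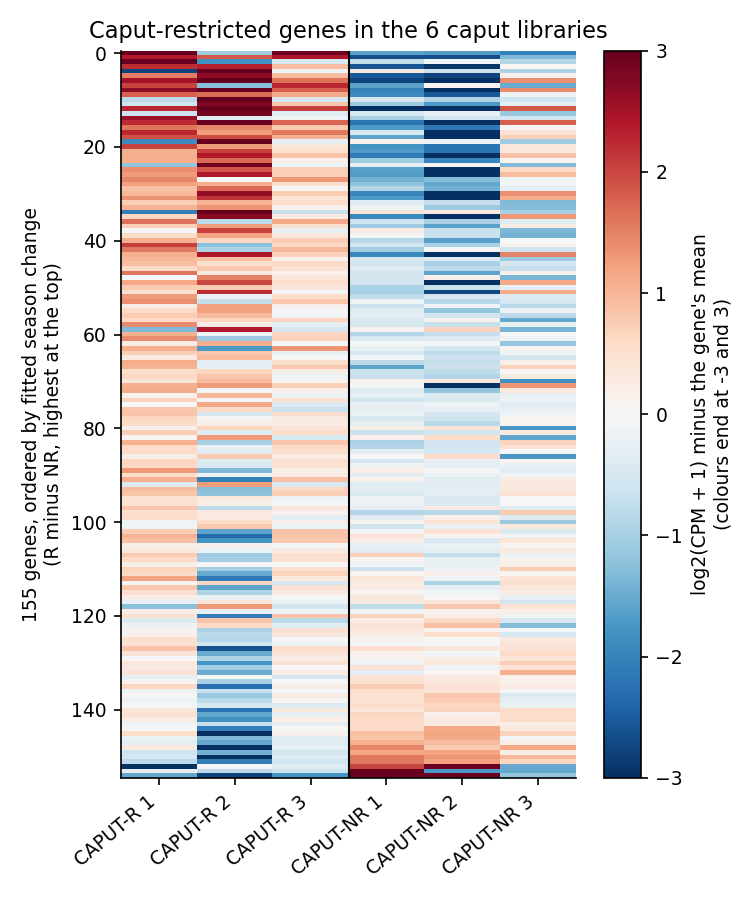
Each of the 155 members (rows, ordered by fitted change, R minus NR, highest at the top) in the 6 caput libraries (columns), as log2(CPM + 1) minus the gene's mean over the 6, with colours ending at -3 and 3. CAPUT-NR 3 is paler than CAPUT-NR 1 and 2 in many upper rows, and CAPUT-R 2 is dark in both directions. CAPUT-R 2 was the highest library in 56 members (36.1%, beside 14.6% of genes of at least 10 CPM) and the lowest in 53 (34.2% beside 24.4%).

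Replicates of a season differed more in the members than in other genes of the caput. The SD of log2(CPM + 1) within a season, pooled over both seasons, had a median of 0.80 over the members, beside 0.26 over genes of at least 10 CPM and 0.31 over all genes tested. Of the members 83, or 53.5%, were above the 90th percentile of genes of at least 10 CPM, which was 0.73. The median biological coefficient of variation fitted by edgeR was 0.486 for members, 0.264 for genes of at least 10 CPM and 0.362 for all genes tested, and the member value was 0.364 without CAPUT-R 2 and 0.439 without CAPUT-NR 3. The spread was wider in R than in NR for 60.0% of members and 58.2% of genes of at least 10 CPM, with member medians of 0.74 in R and 0.47 in NR.

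The rule averages CPM, so that a gene very high in 1 library can pass it, and the spread is not independent of how members were chosen. Without its highest caput library, 31 members would have missed the rule, 13 of them for falling below 10 CPM. The other 124 had a median SD of 0.69, a median season change of 0.64 (log2), 90 positive changes and 25 DESeq2 calls. Over all genes, 50.1% had a positive change, and DESeq2 called 5.54% of those with an adjusted p. These 124 were picked by the same caput values, so they are no independent check. In 4 members 1 caput library was at least 10 times every other. Rank 54 had 4.65, 696 and 34.3 CPM in CAPUT-R and 45.6, 23.9 and 19.1 CPM in CAPUT-NR. Rank 111 had 2.77, 1.61 and 1.87 CPM in CAPUT-R and 136, 0.373 and 0.562 CPM in CAPUT-NR, and rank 153 had 55.8, 0 and 1.59 CPM in CAPUT-R and 1.11, 2.24 and 0.974 CPM in CAPUT-NR. The membership of these 3 rests on CAPUT-R 2, CAPUT-NR 1 and CAPUT-R 1, 1 library each.

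The highest of the 6 caput libraries was a median 6.05 times the lowest. It was over 10 times the lowest in 50 of the 155 members, beside 526 of the 10603 genes of at least 10 CPM. It was over 100 times the lowest in 12 members, beside 182 of these genes. The widest range was that of rank 19, with 769, 1850 and 545 CPM in CAPUT-R, against 35.4, 0.149 and 564 CPM in CAPUT-NR. CAPUT-NR 3 lay within the R range while CAPUT-NR 2 was nearly without the transcript, a ratio of 12415 between highest and lowest.

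Ranks 24 and 60 were similar. Rank 24 had 722, 1513 and 395 CPM in CAPUT-R and 17.8, 0.559 and 331 CPM in CAPUT-NR. Rank 60 had 139, 322 and 121 CPM in CAPUT-R and 0, 0.112 and 104 CPM in CAPUT-NR. In both, as in ranks 5 and 19, CAPUT-R 2 was highest, CAPUT-NR 3 lay below the R libraries or among them, and CAPUT-NR 1 and 2 were far below. Neither passed edgeR (adjusted p 0.474 for rank 24 and 0.603 for rank 60). Without CAPUT-NR 3 DESeq2 called ranks 19, 24 and 60 (adjusted p 0.0158, 0.000251 and 4.70e-28), and edgeR did not (adjusted p 0.234, 0.171 and 0.119).

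Some members were steady. Rank 36 had the smallest spread within seasons, an SD of 0.15 on the log2(CPM + 1) scale, with 319.7, 324 and 276 CPM in CAPUT-R and 244, 245 and 297 CPM in CAPUT-NR. Rank 101 had 36.4, 32.5 and 31.7 CPM in CAPUT-R and 29.0, 27.0 and 35.9 CPM in CAPUT-NR. In both genes CAPUT-NR 3 lay within the R range, and in neither did the seasons differ beyond their spread (edgeR adjusted p 0.468 for rank 36 and 0.669 for rank 101).

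**Figure D5:**
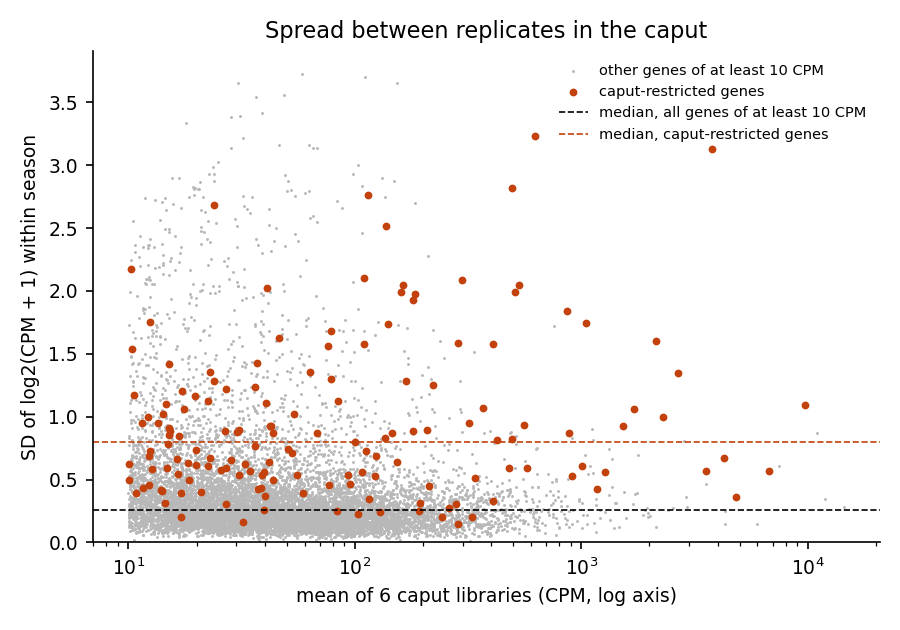
SD of log2(CPM + 1) within season, pooled over both seasons, against the caput mean (CPM, log axis) of each gene of at least 10 CPM, members in red. The dashed lines mark medians of 0.80 for the members and 0.26 for all genes of at least 10 CPM, and members above the general median are found at every level.

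By a factor of at least 2 from both other libraries of its group, CAPUT-R 2 departed in 74 members (47.7%, beside 9.38% of genes of at least 10 CPM) and CAPUT-NR 3 in 44 (28.4% beside 5.52%). CAPUT-NR 2 departed in 21 (13.5% beside 3.10%) and CAPUT-R 1 in 13 (8.39% beside 2.19%). CAPUT-NR 1 did so in 5 (3.23% beside 1.79%) and CAPUT-R 3 in 2 (1.29% beside 3.62%). CAPUT-R 2 was at least 2 times both CAPUT-R 1 and 3 in 26 members, 16.8% beside 4.30% of genes of at least 10 CPM. In 48 members CAPUT-R 1 and 3 were both at least 2 times CAPUT-R 2, 31.0% beside 5.11%. The 26 had medians of 48.6, 345 and 62.4 CPM in CAPUT-R and 27.6, 19.3 and 49.8 CPM in CAPUT-NR, and 24 of them had a positive season change. The 48 had medians of 67.1, 12.4 and 45.6 CPM in CAPUT-R and 37.0, 27.7 and 29.7 CPM in CAPUT-NR, and 29 of them had a positive change. Without CAPUT-R 2 the median SD of the members was 0.46.

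CAPUT-NR 3 was at least 2 times both other NR libraries in 30 members, 19.4% beside 2.86% of genes of at least 10 CPM, while in 14 members both others were at least 2 times CAPUT-NR 3. It was above both in 84 members, 54.2% beside 28.0%. It lay within the range of the CAPUT-R libraries in 75 members, CAPUT-NR 1 in 57 and CAPUT-NR 2 in 59. The same was not counted over other genes, so these numbers cannot be called particular to the members. On a principal component analysis of the members over the caput libraries, the first component held 64.3% of the variance. CAPUT-R 1, 2 and 3 took positions 0.308, 0.489 and 0.191 on it, and CAPUT-NR 1, 2 and 3 took -0.397, -0.681 and 0.0887, which put CAPUT-NR 3 between its own group and R. The second, with 21.8%, set CAPUT-R 2 at 0.756 against CAPUT-R 1 and 3 at -0.548 and -0.253.

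In the cauda the members that could be tested did not lean towards R. A filter on low counts kept 105 of the 155 there, and a member kept only through the season in which it was high had to differ, so these counts describe that subset alone. edgeR called 0 of the 105 and 2 of 16454 genes (0.0122%). At an unadjusted p under 0.05 it had 5 higher and 17 lower in R, 4.76% and 16.2% beside 12.5% and 13% of all genes. DESeq2 called 2 higher and 14 lower of 66 members with an adjusted p, 3.03% and 21.2% beside 8.34% and 7.42% of all genes. Without CAUDA-NR 3, edgeR called 7 of 109 members, 2 higher and 5 lower, 6.42% beside 5.32% of all genes.

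The members of ranks 4 and 10 were, with rank 7, the most abundant of the set in the cauda. Rank 4 had 238, 172 and 163 CPM in CAUDA-R, against 17.7, 13.9 and 134 CPM in CAUDA-NR. CAUDA-NR 3 was close to R and well above the other NR libraries. In the caput the same gene had 5626, 4774 and 4297 CPM in CAPUT-R and 2123, 2186 and 6604 CPM in CAPUT-NR, where CAPUT-NR 3 was the highest of all. Neither change passed edgeR (cauda log2 1.85, SE 0.89, adjusted p 0.246, and caput log2 0.45, SE 0.53, adjusted p 0.696).

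Rank 10 had 217, 160.3 and 73.1 CPM in CAUDA-R, against 52.7, 11.9 and 113 CPM in CAUDA-NR, and the groups overlapped through CAUDA-NR 3. In the caput it was not higher in R: it had 1839, 306 and 1824 CPM in CAPUT-R and 1887, 2324 and 2128 CPM in CAPUT-NR. CAPUT-R 2 was far below the other 5 libraries, which were close together (caput log2 -0.63, SE 0.63, edgeR adjusted p 0.636).

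The named member TSDBGID.23350 was lower in R in the cauda as in the caput. It had 0.693, 2.83 and 1.05 CPM in CAUDA-R, against 10.8, 17.4 and 7.34 CPM in CAUDA-NR, with no overlap. DESeq2 gave a cauda change of -2.85 (log2, adjusted p 4.11e-05), and edgeR did not call it (adjusted p 0.108).

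Whether the season change differed between caput and cauda was tested as an interaction over all 12 epididymal libraries. edgeR called 5 of 17947 genes (0.0279%) and 0 members. Of the 155 members, 50 had not passed the filter in the cauda alone, with a median of 12.5 counts over the 6 cauda libraries, and so entered only through the caput. Among the 105 that had passed it, the caput change was above the cauda change at an unadjusted p under 0.05 in 28 and below it in 2, 26.7% and 1.9% beside 3.76% and 3.54% of the genes that passed. DESeq2 called 9 of 103 such members above, 8.74% beside 0.908%. A member kept in the cauda only through the season in which it was high had to differ there. These counts thus describe that subset alone.

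Neither these counts nor those over all members are to be read as support. Over all members, edgeR had 36 above and 7 below at an unadjusted p under 0.05. These were 23.2% and 4.52% beside 3.96% and 3.39% of all genes. DESeq2 called 13 of 151 members above (8.61% beside 0.964% of all genes) and 0 below (0% beside 0.399%), and 4 of the 13 had not passed the cauda filter. With the replicate numbers assumed to pair caput and cauda, as a block, edgeR called 0 members and 0 genes. DESeq2 then called 31 of 155 members, 27 above and 4 below, beside 617 of the 23074 genes fitted. Members that had not passed the cauda filter were again among those called.

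TSDBGID.9446 had the smallest interaction p of the members. In the cauda it had 0.441, 0.615 and 0.506 CPM in CAUDA-R, against 1.33, 2.09 and 1.06 CPM in CAUDA-NR, so that its order there was the reverse of that in the caput, at a low level. The interaction was 2.81 (log2, caput change minus cauda change, SE 0.39) with an edgeR adjusted p of 0.0685, and DESeq2 gave an adjusted p of 1.79e-07. With the assumed pairing as a block these were 0.241 by edgeR and 2.03e-05 by DESeq2. Its cauda change alone did not pass edgeR (log2 -1.41, SE 0.45, adjusted p 0.134), and DESeq2 gave it no adjusted p. edgeR's interaction adjusted p was 0.0284 without CAUDA-NR 3. Single members were called without CAPUT-R 2 (adjusted p 0.0488) and without CAPUT-NR 3 (adjusted p 0.0220, rank 11), other ones than TSDBGID.9446.

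In the testis 102 members passed the filter. As in the cauda, a member kept only through the season in which it was high had to differ. The counts of the 102 describe that subset alone. edgeR called 0 of the 102 and 0 of 17788 genes (0%). At an unadjusted p under 0.05 it had 1 higher and 11 lower in R, 0.98% and 10.8% beside 1.38% and 15.6% of all genes, and DESeq2 called 0 higher and 3 lower of 122, 0% and 2.46% beside 0.359% and 2.94%. Set against TESTIS-NR 1 and 2 alone, all TESTIS-R libraries were lower in 41 of the 102 members, 40.2% beside 49.9% of all genes. They were higher in 14, 13.7% beside 29.7%. Without TESTIS-NR 3, edgeR called 25 of 113 members, 9 higher and 16 lower in R, 22.1% beside 53.6% of all genes. With all 18 libraries in 1 fit it called 7 of 155, 4.52% beside 13%. Directions in the testis depended on the scaling, since 49 of the 102 changes were positive under TMM and 32 under library totals, which moved the median of all genes to -0.36, against -0.04 under TMM (log2).

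Ranks 6 and 24 stood out in the testis. Rank 6 had 72.4, 82.6 and 68.1 CPM in TESTIS-R, against 442, 479.8 and 79.9 CPM in TESTIS-NR, with TESTIS-NR 3 among the R libraries. Rank 24 had 0.563, 2.15 and 0.378 CPM in TESTIS-R, against 50.8, 41.8 and 2.51 CPM in TESTIS-NR. Its level in TESTIS-NR 1 and 2 exceeded that in CAPUT-NR 1 and 2, 17.8 and 0.559 CPM, so in those NR libraries the gene was not restricted to the caput. DESeq2 called rank 24 in the testis (log2 -4.47, adjusted p 0.00167) and did not call rank 6 (log2 -1.71, adjusted p 0.0776), and edgeR's adjusted p was 0.291 for both.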

How the data were processed

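Values were the raw counts per gene that the authors deposited, 1 column per RNA-seq library, with no normalization. Per the submitters' processing notes, featureCounts and bedtools were used. Their versions, the aligner and the build were not given in the sources used here. All 18 gene columns were used, the 3 small RNA tables were not used here, and 0 gene columns were averages of the other 2 of their group. CPM are counts per 1000000 counts of the column.

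The rule was applied to group means of CPM. For each tissue the season contrast (R minus NR) was fitted on all genes by the quasi-likelihood method of edgeR 4.0.16 under R 4.3.3, after filterByExpr at its defaults and TMM scaling. Adjustment was by Benjamini-Hochberg with a threshold of 0.05, and the code was tested on simulated data. The caput and cauda were compared through the interaction of segment and season. DESeq2 1.42.0, other scalings, no filter, a replicate block, 1 fit of all 18 libraries, other limits of the rule and leaving out each library were alternatives. Tissue differences and sums over members got no test. Spread used log2(CPM + 1), and floors are 3 counts over a group, which cover counting error only. The 12 settings given for edgeR on a named gene and the 8 for DESeq2 include these alternatives and the leaving out of libraries.

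The identifiers named were, in each direction, the 2 members with the smallest caput season p whose seasons did not overlap, since none passed the test. The members, the lists and the tests were chosen with earlier results of these data known. DESeq2 without single caput libraries, or without both numbered 3, and DESeq2 with the replicate block in the interaction were added after the data were seen. Within a season, caput and cauda samples of the same number deviated together across genes (r of 0.160, 0.283 and 0.259 in R and 0.229, 0.190 and 0.188 in NR). Caput samples numbered 2 and 3 did so between seasons too, at 0.282 and 0.371. The labels do not say whether equal numbers are the same animal, so the block fits of the interaction assume the pairing of caput with cauda. The labels call the replicates biological, and p-values measure the spread between these samples.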

Additional observations from a re-analysis of the deposited data

Results flagged for a closer look

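The season change of TSDBGID.9446 went in opposite directions in the 2 segments, with every CAPUT-R library above every CAPUT-NR library and every CAUDA-R library below every CAUDA-NR library. It had 24.4 ± 3.08 CPM in CAPUT-R and 9.75 ± 1.80 CPM in CAPUT-NR, and 0.520 ± 0.0879 CPM in CAUDA-R and 1.49 ± 0.530 CPM in CAUDA-NR (SD, n = 3 each). The difference of the 2 changes was 2.81 (log2, caput minus cauda) and did not pass edgeR's interaction test (adjusted p 0.0685), while DESeq2 called it (adjusted p 1.79e-07). With the assumed pairing of caput and cauda as a block, the adjusted p was 0.241 by edgeR and 2.03e-05 by DESeq2. The cauda change alone did not pass edgeR (adjusted p 0.134), and DESeq2 gave it no adjusted p. The gene was picked for its small p and non-overlapping seasons in the caput, so the caput side of this pattern is no independent observation.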

How the results depend on the processing

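The count of 0 members called by edgeR in the caput was the same under every edgeR alternative, and DESeq2 called 31, or 55 without both caput libraries numbered 3. In the cauda DESeq2 called 16 members and leaving out 1 library gave 0 to 7 (7 without CAUDA-NR 3, 6.42% beside 5.32% of genes). In the testis DESeq2 called 3, 1 fit of all 18 libraries 7 (4.52% beside 13% of genes), and leaving out 1 library gave 0 to 25 (25 without TESTIS-NR 3, 22.1% beside 53.6%). In the interaction DESeq2 called 13, and leaving out 1 library gave 0 to 1. A 5-fold limit gave 239 members and a 20-fold limit 102, and leaving out 1 library 142 to 165. The median SD ran from 0.455 without CAPUT-R 2 to 0.855, and the ratio of summed shares from 1.75 to 2.68. The cause of these differences was not tested.

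Replicate numbers of R and NR share only a number: deviations of equal numbers correlated at 0.0302, 0.282 and 0.371 in the caput and under 0.1 in cauda and testis, and not every sample correlated best with its own number. With the replicate block edgeR called 0 members and 0 of all genes in each tissue. The assumed pairing of caput with cauda took the interaction calls of edgeR to 0 genes, against 5 without it (0 members in both). It took those of DESeq2 to 31 of 155 members (27 above, 4 below) beside 617 of 23074 genes fitted. Without it they were 13 of 151 members beside 239 of these genes. Each group had 3 libraries, some of which stood apart, and the spread of the members was wide. The part of either in the number of calls was not tested. Levels under 1 CPM rest on few reads.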
